A study of Mus musculus with 84 samples.

Results

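Gene expression of reprogramming cells carrying the Smad3CA vector (+Sm3CA) was compared with that of cells carrying the control vector (Cont) on day 8, which took 18 of the 84 sequenced wells of the series. The wells were chosen by their titles and the technical wells of 1 replicate were summed, so that 3 +Sm3CA libraries stood against 3 Cont libraries. The wider series followed both vectors on days 3, 6, 8 and 10 and added mouse embryonic fibroblasts (MEFs) and embryonic stem cells (ESCs) as the start and end points. Expression was measured with STRT RNA-seq, which reads the 5′ end of each transcript, as raw read counts of 18909 genes. Both groups were TNG MKOS MEFs of 129 background. These cells carry the MKOS cassette, which expresses Oct4, Sox2, Klf4 and c-Myc together with an mOrange reporter when doxycycline is given, a transgenic rtTA and a GFP reporter placed in 1 Nanog allele. They had been mixed with an excess of wild-type MEFs, infected with a pMXs retroviral vector and kept in medium for ESCs that held LIF (100 U/ml), doxycycline (300 ng/ml) and vitamin C. mOrange+ cells were sorted, which selects for cells expressing the factors in both groups. The purity of the sort was not examined here. The control vector expressed the blue fluorescent protein EBFP2 (the wells are titled BFP). The other vector expressed Smad3CA, in which serines at the C terminus are changed to aspartic acid to mimic receptor phosphorylation. Retroviral vectors can be silenced as reprogramming proceeds, and the sort did not select for the vector, so the share of cells expressing Smad3CA on day 8 is not given by these data.

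SMAD2 and SMAD3 carry signals of TGF-β, activin and Nodal from the cell surface to the nucleus. Ligand-bound receptors phosphorylate their C-terminal serines, after which they bind SMAD4 and regulate genes together with the transcription factors already active in the cell. In fibroblasts this pathway is known for raising contractile and matrix genes and for opposing the change from a mesenchymal to an epithelial state, whereas in pluripotent cells it supports expression of pluripotency genes. Reprogramming MEFs lose mesenchymal genes, gain epithelial genes such as Cdh1, speed up their cell cycle and switch on the pluripotency network last.

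The 6 day 8 libraries held 1304562 to 2296059 reads, from wells of 398068 to 902989 reads. Over the tested genes, log2 expression values of wells of 1 library correlated with r from 0.901 to 0.954 across genes, and wells of 2 libraries of 1 group from 0.876 to 0.913. No pair of libraries was identical. Mitochondrial transcripts took 17.0% to 19.9% of the reads in Cont and 16.6% to 20.1% in +Sm3CA. Cells of both groups had lost much of the expression of fibroblast genes and were far from ESCs. The summed normalized count of 14 smooth muscle contractile genes was 1202 to 2205 in Cont and 743 to 904 in +Sm3CA. In MEFs it was 38325 to 53443. The sum of 29 mesenchymal and fibroblast genes was 1472 to 2230 in Cont and 1112 to 1277 in +Sm3CA. It was 9172 to 11083 in MEFs and 221 to 278 in ESCs. The sum of 30 pluripotency-associated genes was 393 to 449 and 358 to 458 against 32388 to 58439 in ESCs. Normalized counts are read counts divided by a size factor for each library. Cont replicate 1 stood apart from the other 5 libraries in genes of brain tissue. Of the called genes named here, Inhba, Lum, Dmkn, Rrm2, Ttr, Kif5a and Slc1a2 lost their calls without it. Fewer cells of a type and less RNA per cell cannot be told apart in such pooled material.

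Smad3, the gene carried by the vector, was higher in +Sm3CA (chromosome 9 of GRCm38, 63646767 to 63757994, minus strand, protein-coding). Its normalized counts were 9.06, 8.44 and 7.16 in Cont replicates 1 to 3 and 77.9, 82.1 and 48.4 in +Sm3CA replicates 1 to 3. The groups were well apart, and +Sm3CA replicate 3 was the lowest of its group. The log2 fold change was 3.11 (SE 0.37, adjusted p = 2.38e-06, with Benjamini-Hochberg adjustment of edgeR's quasi-likelihood test, an 8.66-fold difference), and the two-sided exact permutation test gave p = 0.1, the smallest that 3 against 3 allows. Within wells, Smad3 had 1 to 5 reads in each Cont well and 15 to 55 in each +Sm3CA well. The counts do not separate transcripts of the vector from those of the endogenous gene. In MEFs Smad3 stood at 32.0 ± 9.03 and in ESCs at 10.98 ± 4.97 normalized counts (SD, n = 3).

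Among the other components of the pathway, Inhba, which encodes the subunit of activin A, was lower in +Sm3CA. It stood at 21.5, 13.7 and 22.1 normalized counts in Cont and 6.80, 0 and 2.42 in +Sm3CA (log2 fold change −2.58, SE 0.64, adjusted p = 0.0356, edgeR), with no overlap between the groups. The call of Inhba was lost without Cont replicate 1, 2 or 3 or +Sm3CA replicate 2, and its log2 fold change ran from −4.03 to −1.96 over the alternatives (adjusted p up to 0.278). Smad2, the close relative of Smad3, had 48.7, 53.8 and 51.9 normalized counts in Cont and 81.0, 85.2 and 58.9 in +Sm3CA. The libraries of Smad2 did not overlap, but the difference did not pass the adjustment (log2 fold change 0.56, SE 0.20, adjusted p = 0.147, edgeR, exact permutation p = 0.1). Of 34 listed pathway components 24 had enough reads to be tested, of which 1 was called higher (Smad3), 1 lower (Inhba) and 22 not at all. The median log2 fold change of these 24 was −0.21, against −0.0034 over all genes tested. Values of other members, chosen after they were seen, included Smad4, the shared partner (log2 fold change 0.57, SE 0.20, adjusted p = 0.14, edgeR), and Skil, a repressor of SMAD activity that is itself a SMAD target (−0.76, SE 0.22, adjusted p = 0.071). Skil stood at 87.2 to 97.1 normalized counts in Cont and 51.3 to 54.9 in +Sm3CA, without overlap.

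**Figure D1:**
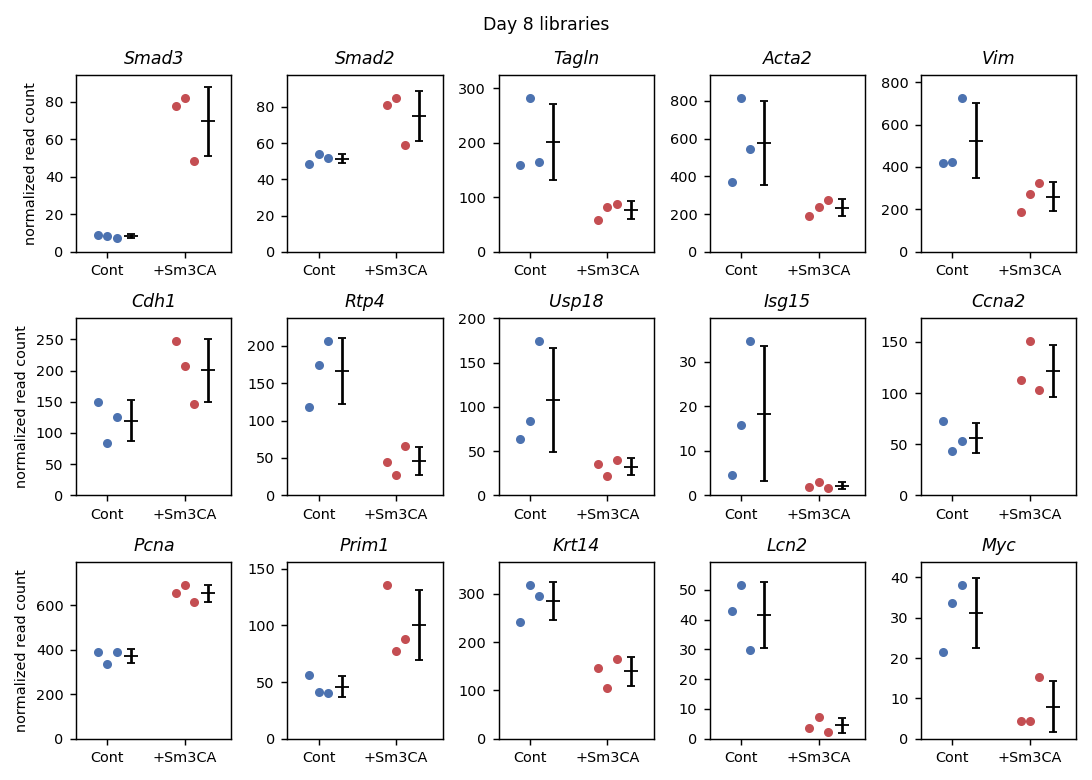
Normalized read counts of 15 genes in the 6 day 8 libraries. Each panel is 1 gene, points are libraries in the order of replicates 1 to 3 (blue Cont, red +Sm3CA), and the black mark with its bar is the mean ± SD of 3 libraries. Smad3 stood at 7.16 to 9.06 in Cont and 48.4 to 82.1 in +Sm3CA; Cdh1 is the only gene shown whose groups overlap.

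Across the 10237 genes tested, 106 differed at an adjusted p under 0.05 by edgeR's quasi-likelihood test, or 1.04% of them. Of these, 39 were higher in +Sm3CA (0.381% of the genes tested) and 67 lower (0.654%). The sizes ran from 0.61 to 3.11 on the log2 scale among the higher genes (median 0.91) and from 0.63 to 6.29 among the lower ones (median −1.27), and 16 of the 39 and 51 of the 67 differed by more than 1 log2 unit. The libraries of Cont and +Sm3CA lay apart for 36 of the 39 and 62 of the 67, while over all genes tested +Sm3CA lay wholly above Cont for 7.57% and wholly below for 8.35%. At an unadjusted p under 0.05, 1559 genes differed. DESeq2's Wald test called 84 genes higher and 60 lower, and so turned the balance of directions. The number of calls depended on single libraries. It was 92 without Cont replicate 1, 34 without Cont replicate 2, 53 without Cont replicate 3, 70 without +Sm3CA replicate 1, 21 without +Sm3CA replicate 2 and 523 without +Sm3CA replicate 3. Of 49 called genes that the naming rule picked, 8, 27 and 26 lost their calls without Cont replicate 1, 2 or 3, and 20, 33 and 2 without +Sm3CA replicate 1, 2 or 3. The calls of 7 held in every alternative in which they were tested, namely Smad3, Mbp, Enpp2, Lcn2, Rtp4, Gpx2-ps1 and G730013B05Rik. No called gene of the 49 changed its direction.

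**Figure D2:**
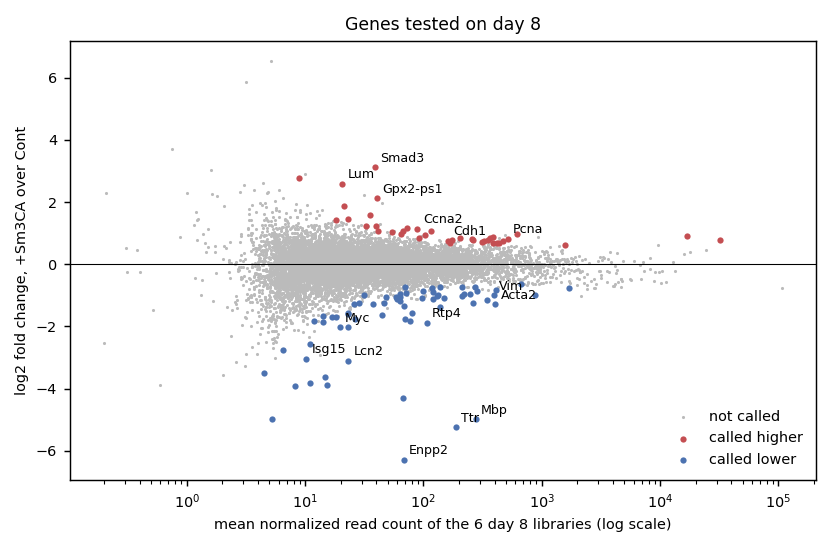
Log2 fold change of +Sm3CA over Cont on day 8 (y axis) against the mean normalized read count of the 6 libraries (x axis, log scale) for the 10237 genes tested. Grey points were not called, red points are the 39 genes called higher and blue points the 67 called lower (adjusted p under 0.05); the 3 lowest points are Enpp2, Ttr and Mbp.

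Several contractile genes of smooth muscle and myofibroblasts were lower in +Sm3CA. Of 14 listed genes 9 were tested, all 9 had a negative log2 fold change (median −0.81), and 5 were called, namely Acta2, Tagln, Tpm1, Tpm2 and Cald1. Acta2 (smooth muscle α-actin, chromosome 19, 34241090 to 34255590) had 372, 818 and 543 normalized counts in Cont and 188, 237 and 277 in +Sm3CA. Every +Sm3CA library was below every Cont library, and the log2 fold change was −1.29 (SE 0.24, adjusted p = 0.00287, edgeR). Tagln (transgelin, an actin-binding protein, chromosome 9, 45929619 to 45936058) had 158, 283 and 165 in Cont and 58.1, 82.7 and 88.0 in +Sm3CA (log2 fold change −1.39, SE 0.24, adjusted p = 0.00138). The tropomyosins Tpm1 and Tpm2 differed by −0.74 and −1.36 and the actin- and calmodulin-binding Cald1 by −0.72 (adjusted p = 0.0356, 0.0156 and 0.0442). Without Cont replicate 2, in which Acta2, Tagln, Tpm1 and Tpm2 were highest, 1 of the 9 was called. With any 1 day 8 library left out, the median of the list stayed between −1.15 and −0.74.

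The same contractile genes led the list of TGF-β and SMAD3 targets. That list, like the others, was written with earlier results of these data known. Of 39 listed targets 34 were tested, of which 0 were called higher and 4 lower (Ctgf, Tagln, Acta2 and Tpm1), 28 had a negative value and the median was −0.56. Of all genes tested 49.6% had a positive value. Ctgf, a matricellular protein induced by TGF-β in fibroblasts, had 60.0, 96.0 and 104 normalized counts in Cont and 37.1, 61.9 and 24.2 in +Sm3CA, so that +Sm3CA replicate 2 reached the Cont range (log2 fold change −1.06, SE 0.25, adjusted p = 0.0232, edgeR). Among the targets not called, Smad7, the inhibitory SMAD, stood at 14.7, 6.33 and 29.2 in Cont and 9.89, 7.97 and 8.07 in +Sm3CA (adjusted p = 0.253), and was chosen after its values were seen. Of the 5 BMP targets tested 1 was called, Id3, an inhibitor of basic helix-loop-helix factors (130, 133 and 208 against 101, 70.5 and 84.8, log2 fold change −0.88, SE 0.22, adjusted p = 0.0356).

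Mesenchymal genes gave a smaller and less even difference. Of 20 tested of 30 listed, 2 were called lower and 0 higher, 15 had a negative value and the median was −0.27. Vim (vimentin, the intermediate filament of mesenchymal cells) had 420, 422 and 727 normalized counts in Cont and 186, 271 and 323 in +Sm3CA (log2 fold change −1.004, SE 0.23, adjusted p = 0.0203, edgeR). S100a4, a calcium-binding protein of fibroblasts, had 252, 323 and 521 against 171, 113 and 180 (−1.24, SE 0.31, adjusted p = 0.0405). Of 43 matrix genes tested 1 was called in each direction. The proteoglycan Bgn was lower (126, 212 and 157 against 59.9, 69.8 and 98.5, −1.11, SE 0.26, adjusted p = 0.0241), and its relative Lum was higher (4.53, 6.33 and 6.56 against 31.5, 52.7 and 22.6, 2.59, SE 0.66, adjusted p = 0.0452). The libraries of Bgn and of Lum did not overlap, but the calls of Vim, S100a4, Bgn and Lum each depended on single libraries. Lum lost its call in 7 of 14 alternatives and stayed called only without +Sm3CA replicate 3 among those that left out a day 8 library. Bgn lost its call in 5 of 15 alternatives, Vim in 5 and S100a4 in 6, all 3 without +Sm3CA replicate 1 or 2, Bgn and S100a4 also without Cont replicate 2, and Vim and S100a4 also without Cont replicate 3.

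Several genes induced by interferons were lower in +Sm3CA. Of 43 listed genes 40 were tested, 38 of the 40 had a negative log2 fold change, and the median was −0.96. Called were 6, all lower: Rtp4, Usp18, Irgm1, Oasl2, Isg15 and Parp9. The Cont and +Sm3CA libraries did not overlap for 12 of the 40, in each case with +Sm3CA below. Over all genes tested +Sm3CA lay wholly below for 8.35%. Rtp4 (chromosome 16, 23520291 to 23614222) had 119, 175 and 206 normalized counts in Cont and 45.1, 27.0 and 65.4 in +Sm3CA (log2 fold change −1.88, SE 0.32, adjusted p = 0.00139, edgeR). Usp18, a protease that removes the ISG15 modifier and dampens interferon signalling, had 63.4, 84.4 and 174 against 35.8, 21.4 and 39.6 (−1.76, SE 0.34, adjusted p = 0.00539). Irgm1, an immunity-related GTPase, had 81.5, 91.8 and 185 against 72.3, 26.3 and 21.8 (−1.56, SE 0.31, adjusted p = 0.00539). Isg15, the ubiquitin-like modifier, was low throughout, with 4.53, 15.8 and 34.6 against 1.85, 3.06 and 1.61 (−3.04, SE 0.68, adjusted p = 0.0171), and its Cont level differed several-fold among replicates.

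Cont replicate 1 was the lowest Cont library for Rtp4, Usp18, Irgm1, Oasl2, Isg15 and Parp9. Summed over the 40 tested interferon-stimulated genes the normalized counts were 2974, 3961 and 4960 in Cont and 3160, 2524 and 2535 in +Sm3CA, so that +Sm3CA replicate 1 lay above Cont replicate 1. For Parp9, a cofactor of interferon responses, the groups overlapped (20.4, 44.3 and 39.4 against 21.6, 6.13 and 6.46, −1.57, SE 0.40, adjusted p = 0.0443), and for Oasl2, an oligoadenylate synthetase-like protein, they did not (17.0, 36.9 and 49.5 against 10.5, 11.03 and 12.9, −1.61, SE 0.40, adjusted p = 0.0356). The number called fell to 1 without Cont replicate 3 or without +Sm3CA replicate 2. The median of the list stayed between −1.43 and −0.57 whichever library was left out. DESeq2's Wald test called 2 of the list. Macrophage genes were present in both groups, with a summed normalized count of 18 genes of 1740 to 2835 in Cont and 1322 to 2663 in +Sm3CA. Their part in the difference was not tested. Samd9l, which is also known as an interferon-induced gene but was not on the list, was named after its values were seen. It had 43.0, 34.8 and 45.9 against 16.1, 8.58 and 11.3 (−1.77, SE 0.36, adjusted p = 0.00888).

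Promoters bear on this group because interferon-activated factors bind an element of the letters GAAANNGAA. That element was searched on both strands in RefSeq promoters of GRCm38.p6 (250 bases before and 50 after each start). It was present for 19 of the 31 tested interferon genes with a promoter in the table (61.3%), for 5 of 40 genes called lower (12.5%) and for 2 of 24 genes called higher (8.33%), against 8.50% of the 7601 tested genes with a promoter. Isg15 and Irgm1 are shown because they were called lower and hold the element, in overlapping copies, upstream of the start. Both lines give the last 120 bases before the start, 5′ to 3′ on the strand of the gene, with the element in capitals.
Isg15: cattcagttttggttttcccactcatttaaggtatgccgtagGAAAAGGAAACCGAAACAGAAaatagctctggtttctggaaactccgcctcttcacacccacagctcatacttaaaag
Irgm1: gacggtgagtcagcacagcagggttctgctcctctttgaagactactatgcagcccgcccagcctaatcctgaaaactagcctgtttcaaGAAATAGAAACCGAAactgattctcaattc
In Isg15 (chr4:156200819-156200938, minus strand, promoter of a protein-coding gene) 3 overlapping copies span positions −78 to −58, and in Irgm1 (chr11:48871421-48871540, minus strand) 2 overlapping copies span −30 to −16, counted from the start. Oasl2 had no copy in its window, and Rtp4, Usp18 and Parp9 were without an entry in the promoter table. The same windows were searched for the SMAD palindrome GTCTAGAC, which was in 0 of 64 called genes with a promoter and 0.224% of all, and for the CAGA box AGCCAGAC, which was in 1 of 64 (Tnfrsf12a, called lower) and 1.58% of all. A match of letters is a description of the window and not a bound site.

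A few genes of the cell cycle were higher in +Sm3CA. Of 37 DNA replication genes, which were all tested, 4 were called higher (Prim1, Pcna and Rrm2 among them) and 0 lower, 29 had a positive value and the median was 0.29. Pcna, the sliding clamp of DNA polymerases (chromosome 2, 132249162 to 132253314), had 389, 338 and 393 normalized counts in Cont and 656, 694 and 618 in +Sm3CA. The 2 groups were tight and separate (log2 fold change 0.83, SE 0.17, adjusted p = 0.00958, edgeR). Prim1, the catalytic subunit of DNA primase, had 56.6, 41.2 and 39.97 against 136, 77.8 and 88.0 (1.16, SE 0.21, adjusted p = 0.00287). Rrm2, a subunit of ribonucleotide reductase, differed by 0.78 (adjusted p = 0.0131). Of 35 mitosis genes tested 1 was called, Ccna2 (cyclin A2; 72.5, 43.3 and 53.1 against 112, 151 and 103, 1.14, SE 0.22, adjusted p = 0.00478), and 30 had a positive value, with a median of 0.27. The +Sm3CA libraries lay wholly above Cont for 10 of the 37 and 9 of the 35, against 7.57% of all genes tested. All 4 lost their calls together when only the day 8 libraries were fitted, and 1 of the 4 was called without Cont replicate 2 or without +Sm3CA replicate 2. The medians of both lists stayed above 0 in each of these fits.

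**Figure D3:**
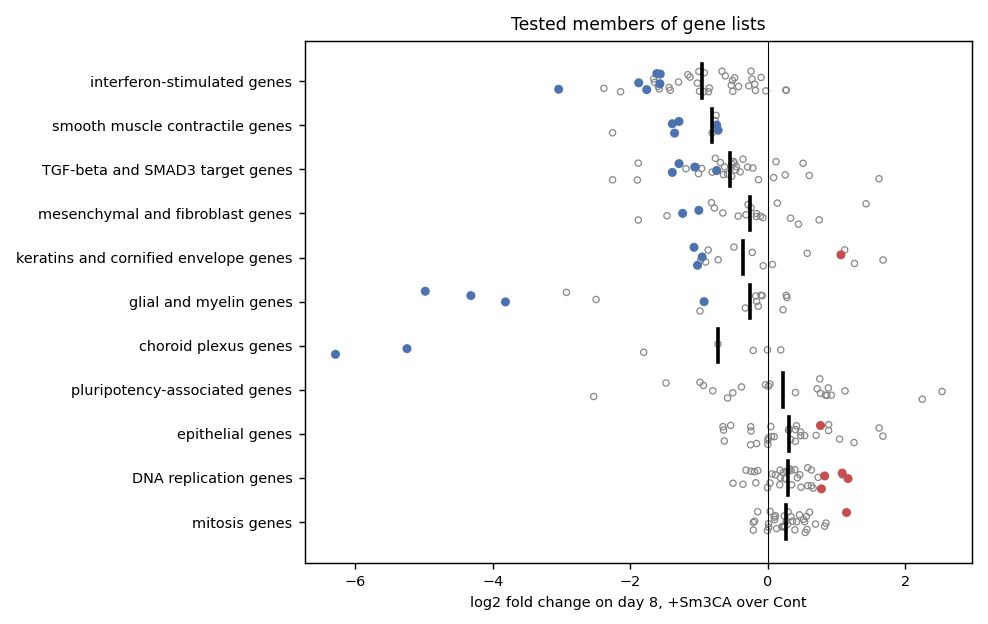
Log2 fold change of +Sm3CA over Cont on day 8 (x axis) for the tested members of 11 gene lists (y axis, spread vertically for visibility). Filled points were called (red higher, blue lower), open points were not, and the black bar is the median of the list, which was −0.96 for interferon-stimulated genes and 0.29 for DNA replication genes.

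Epithelial and pluripotency genes differed less. Cdh1 (E-cadherin, chromosome 8, 106603351 to 106670246) had 149, 84.4 and 126 normalized counts in Cont and 247, 207 and 147 in +Sm3CA. The lowest +Sm3CA library lay just under the highest Cont library (log2 fold change 0.76, SE 0.19, adjusted p = 0.0443, edgeR). The call was lost in 7 of 15 alternatives, with values from 0.57 to 0.93. Cdh1 was the 1 call among 31 epithelial genes tested, whose median was 0.31. None of the 22 pluripotency-associated genes tested was called, and their median was 0.22. With the library left out that moved it most, the median was −0.10. Zfp42 (Rex1, a late pluripotency marker) had 14.7, 25.3 and 20.9 in Cont and 44.5, 28.8 and 60.5 in +Sm3CA (1.12, SE 0.31, adjusted p = 0.0575), without overlap. Dppa5a had 21.5, 13.7 and 10.7 against 9.89, 37.4 and 24.2 (adjusted p = 0.552), which overlapped. Nanog, named after its values were seen, had 0 to 1.19 in Cont and 2.45 to 8.03 in +Sm3CA (adjusted p = 0.144), where 3 reads correspond to 1.79 to 3.40 normalized counts. For comparison, ESCs held 202 normalized counts of Nanog.

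Some keratins of stratified epithelium were lower while the epidermal genes Dmkn and Klk10 were higher. Krt14, Krt16 and Krt6a were called lower and Dmkn higher among the 16 genes tested of this list (median −0.36). Krt14 (a basal layer keratin, chromosome 11, 100203162 to 100207548) had 241, 319 and 295 normalized counts in Cont and 146, 106 and 165 in +Sm3CA (log2 fold change −1.02, SE 0.25, adjusted p = 0.0361, edgeR). Krt16 had 189, 218 and 204 against 97.0, 83.9 and 107 and Krt6a 271, 378 and 329 against 156, 125 and 220 (−1.07 and −0.95, adjusted p = 0.0241 and 0.0493). Dmkn, a protein secreted by differentiated keratinocytes, had 38.5, 108 and 78.2 against 161, 193 and 111 (1.06, SE 0.26, adjusted p = 0.0356). Klk10, a secreted serine protease, had 13.6, 14.8 and 23.3 against 66.1, 50.2 and 44.4 (1.59, SE 0.33, adjusted p = 0.0098). The calls of the 3 keratins went together, at 0 called without Cont replicate 2, Cont replicate 3, +Sm3CA replicate 1 or +Sm3CA replicate 2, although in each case the differences stayed negative.

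Myc was lower in +Sm3CA, at 21.5, 33.8 and 38.2 normalized counts in Cont and 4.33, 4.29 and 15.3 in +Sm3CA (log2 fold change −2.03, SE 0.37, adjusted p = 0.00287, edgeR). The 4 reprogramming factors are all expressed from the MKOS cassette, and the counts do not separate its transcripts from endogenous ones. How far reads of 5′ ends from the cassette count toward each of the 4 genes was not tested. The other factors, chosen because they share the cassette, did not pass the adjustment. Klf4 had 28.3, 18.99 and 28.0 against 14.2, 9.80 and 15.3 (adjusted p = 0.139) and Sox2 29.4, 26.4 and 23.3 against 8.03, 11.6 and 20.2 (adjusted p = 0.186), both without overlap. Pou5f1 had 82.6, 64.4 and 91.3 against 83.4, 61.9 and 94.4 (log2 fold change 0.01, adjusted p = 0.99).

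Other genes with the smallest p-values belonged to varied functions. Lcn2, an iron-binding acute phase protein (chromosome 2, 32384633 to 32388252), had 43.0, 51.7 and 29.8 normalized counts in Cont and 3.71, 7.35 and 2.42 in +Sm3CA (log2 fold change −3.10, SE 0.48, adjusted p = 0.000466, edgeR) and kept its call in all 14 alternatives in which it was tested. Crabp2, which carries retinoic acid to its receptors, had 522, 432 and 474 against 198, 162 and 278 (−1.15, SE 0.22, adjusted p = 0.00506). Chd1, a chromatin remodeller, had 406, 449 and 412 against 808, 1222 and 439 (0.97, SE 0.21, adjusted p = 0.0131), and +Sm3CA replicate 3 lay within the Cont range. Otud4, a deubiquitinase, and Trappc1, a vesicle transport subunit, differed by 0.93 and 0.77 (adjusted p = 0.0131 and 0.0156). The long intergenic RNA G730013B05Rik had 1.13, 2.11 and 2.98 against 21.0, 15.9 and 10.5 (2.78, SE 0.51, adjusted p = 0.00287), and C330018D20Rik had 23.8, 23.2 and 24.5 against 58.7, 60.0 and 47.6 (1.23, SE 0.26, adjusted p = 0.0131). Gpx2-ps1 is annotated as a processed pseudogene and its reads cannot be told apart from those of near-identical copies. It had 10.2, 9.50 and 23.3 against 70.5, 34.3 and 96.9 (2.12, SE 0.36, adjusted p = 0.00138).

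Of the remaining lists, stress and immune genes gave single calls. Hspb1, a small heat shock protein, had 169, 185 and 171 normalized counts in Cont and 53.2, 96.8 and 108 in +Sm3CA (log2 fold change −1.02, adjusted p = 0.00888, edgeR), and Herpud1, of the unfolded protein response, had 77.0, 87.6 and 96.6 against 44.5, 55.8 and 58.1 (−0.72, adjusted p = 0.0479). They were the 2 calls among 23 genes of that list, and the call of Herpud1 was lost in 9 of 15 alternatives, among them those without Cont replicate 2 or 3 or +Sm3CA replicate 1 or 2. Psme1, a subunit of the proteasome activator that serves antigen processing, was the 1 call among 11 genes of MHC class I presentation (55.5, 93.9 and 87.7 against 39.6, 31.2 and 42.0, −1.07, adjusted p = 0.0156). Among 20 chemokine and cytokine genes 0 were called. For 8 of the 20 +Sm3CA lay wholly below Cont (8.35% of all genes tested) and for 0 wholly above (7.57%). The median of the 20 was −0.65. The most abundant of these not called was Ccl7 (911, 712 and 941 against 978, 1602 and 840, adjusted p = 0.304), followed by Ccl2 (735, 629 and 725 against 430, 483 and 451, adjusted p = 0.169). In all, the 37 lists held 596 distinct tested genes, of which 41 were called, and 65 called genes were in no list.

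The lists of hypoxia, cholesterol synthesis, glycolysis and p53 axis genes gave no calls, which does not cover metabolic genes outside these lists. Of 14 hypoxia genes tested 11 had a positive value (median 0.38). The most abundant of them included Higd1a, a mitochondrial protein induced by low oxygen, with 349, 368 and 312 normalized counts in Cont and 408, 994 and 532 in +Sm3CA (adjusted p = 0.06, edgeR). Among 22 cholesterol synthesis genes the median was 0.18, and among 18 glycolysis genes it was 0.05. Gapdh, a glycolytic enzyme, ranged from 924 to 4007 within +Sm3CA alone and from 3140 to 3899 in Cont. Of 18 genes of the p53 axis 14 had a negative value (median −0.24), and Cdkn1a, the cyclin-dependent kinase inhibitor p21, had 1055, 1186 and 1171 in Cont and 688, 836 and 1106 in +Sm3CA (adjusted p = 0.282), which overlapped.

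Genes of brain tissue had the largest differences among the genes called on day 8 and were also the least even among replicates. Mbp (myelin basic protein) had 1273, 147 and 184 normalized counts in Cont and 19.2, 6.13 and 25.8 in +Sm3CA (log2 fold change −4.98, SE 0.72, adjusted p = 0.000175, edgeR). Enpp2 and Ttr, the secreted products for which choroid plexus is known, had 327, 37.99 and 39.4 against 1.85, 0 and 3.23 (−6.29, SE 0.98, adjusted p = 0.000466) and 892, 114 and 96.0 against 17.3, 0.613 and 10.5 (−5.25, SE 0.93, adjusted p = 0.00211). All 3 Cont libraries were above all 3 +Sm3CA libraries, and Cont replicate 1 was several times above the other Cont libraries. The neuronal kinesin Kif5a and the astrocyte glutamate transporter Slc1a2 differed by −3.64 and −3.82 (adjusted p = 0.0131 and 0.0442) and were likewise highest in Cont replicate 1. In its separate wells Mbp had 373, 360 and 391 reads, against 37 to 141 in the wells of the other Cont replicates and 3 to 17 in those of +Sm3CA.

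The whole lists are given because the labels do not give the source of these transcripts, which was not tested. Of 27 glial genes, 22 to 24 had reads in each Cont library and 15 to 18 in each +Sm3CA library, and their summed normalized counts were 1563 to 3030 and 1034 to 1293. Of 18 choroid plexus genes, 11 to 17 had reads in Cont and 10 in each +Sm3CA library (summed 558 to 1724 and 488 to 554), and of 39 neuronal genes, 30 to 34 and 20 to 24 (summed 4819 to 6401 and 2462 to 5664). The sums of these 2 lists did not set Cont on day 8 apart. Neuronal sums were 6482 to 6997 in Cont on day 6, where 21 to 24 genes had reads. Choroid plexus sums were 1738 to 1898 in MEFs, where 7 to 8 genes had reads. Among the called glial genes, Pmp22 is also a gene of fibroblasts, with 287 normalized counts in MEFs, and differed by −0.93 (adjusted p = 0.0298, edgeR). In MEFs, ESCs and the day 3 and day 6 libraries Mbp was at 1.29 to 16.2, and among the day 10 libraries it was highest in +Sm3CA replicate 1, at 520. Without Cont replicate 1, 2 of the 4 glial genes kept their calls. Mbp and Enpp2 kept theirs, Ttr, Kif5a and Slc1a2 did not, and 92 genes remained called in all. With Cont replicate 1 left out, the number of called interferon genes stayed within 1.5 times and Acta2 and Tagln kept their calls. That fit still held brain genes, with Mbp at 147 and 184 in Cont replicates 2 and 3 against 6.13 to 25.8 in +Sm3CA. The part of these brain genes in the differences of other genes was not tested.

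**Figure D4:**
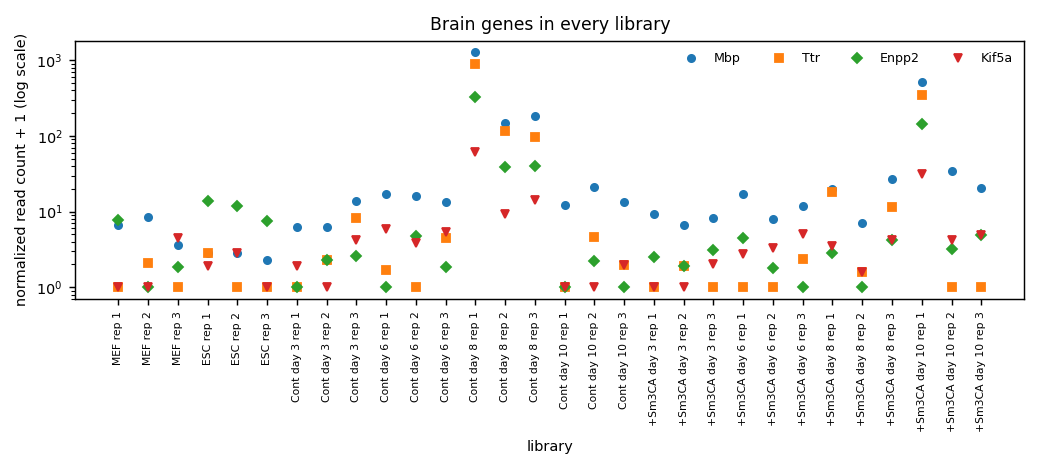
Normalized read count + 1 (y axis, log scale) of 4 genes of brain tissue in each of the 30 libraries (x axis). All 4 genes are highest in Cont day 8 replicate 1, where Mbp reaches 1273, followed by +Sm3CA day 10 replicate 1, where it reaches 520.

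The days on either side show how far the day 8 differences were particular to that day. The series' design pairs same-numbered replicates of a vector over the days. The main fit held group means only and so treated these libraries as unpaired. Deviations of paired libraries from their group means correlated at only −0.08 to 0.13 between days 6 and 8. On day 6, 1 of the 106 genes was called (Smad3), and the genes called on day 8 had a median log2 fold change of −0.07 (higher) and −0.09 (lower) there. Acta2 stood at 299 in Cont and 285 in +Sm3CA on day 6, Rtp4 at 9.78 and 17.9, Lcn2 at 0.586 and 2.46, and Pcna at 458 and 402 (means of 3 libraries). The day 8 effect minus the day 6 effect was called for 0 genes by edgeR, with 936 at an unadjusted p under 0.05, and for 25 by DESeq2's Wald test, so that most of these genes were not shown to differ between the 2 days.

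On day 10, 0.83% of the genes tested were called higher and 2.74% lower in +Sm3CA. Of the 67 genes lower on day 8, 30 were called lower on day 10 too, and 4 were called higher (Mbp, Enpp2, Ttr and Kif5a). Of the 39 genes higher on day 8, 2 were called higher on day 10. Smad3 was not among them. It stood at 20.6 ± 5.37 in Cont and 41.6 ± 7.81 in +Sm3CA on day 10 (SD, n = 3), with a log2 fold change of 0.997 (SE 0.36, adjusted p = 0.12, edgeR). The difference of Smad3 between days 8 and 10 did not pass the adjustment (2.12, SE 0.53, adjusted p = 0.0732, edgeR). Acta2 was at 725 ± 79.6 in Cont and 145 ± 24.9 in +Sm3CA on day 10 (SD, n = 3) and Rtp4 at 442 ± 87.8 and 86.0 ± 37.4, with log2 fold changes of −2.30 and −2.35. Of the 40 interferon genes 22 were called lower on day 10. The DNA replication and mitosis lists had medians of 0.23 and 0.31 on day 10, against 0.29 and 0.27 on day 8. Pcna stood on day 10 at 555 ± 80.8 and 572 ± 128 normalized counts and Prim1 at 111 ± 19.6 and 133 ± 24.99, neither of them called (adjusted p = 0.911 and 0.559, edgeR), but for both genes the difference between the days did not pass the adjustment either.

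The difference between the effects on days 8 and 10 was called for 19 genes, or 0.186% of those tested, 13 of them with the higher value on day 8. The 6 with the lower value on day 8 included Mbp, Enpp2, Ttr, Kif5a and Atp1b1, and 5 of the 6 were on the brain lists. Ccl7, the chemokine MCP-3, had 855 ± 124 normalized counts in Cont and 1140.3 ± 406 in +Sm3CA on day 8 against 1631 ± 360 and 649 ± 112 on day 10 (SD, n = 3; difference of log2 fold changes 1.74, SE 0.29, adjusted p = 0.00135, edgeR). Ctsl, a lysosomal protease, and Slc25a17, a peroxisomal carrier, differed by 1.36 and 1.44 between the days (adjusted p = 0.00517 and 0.00209). Without the 2 libraries highest in brain genes (Cont day 8 replicate 1 and +Sm3CA day 10 replicate 1), 4 genes were called, 2 of them among the 19 (Ccl7 and Mbp).

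**Figure D5:**
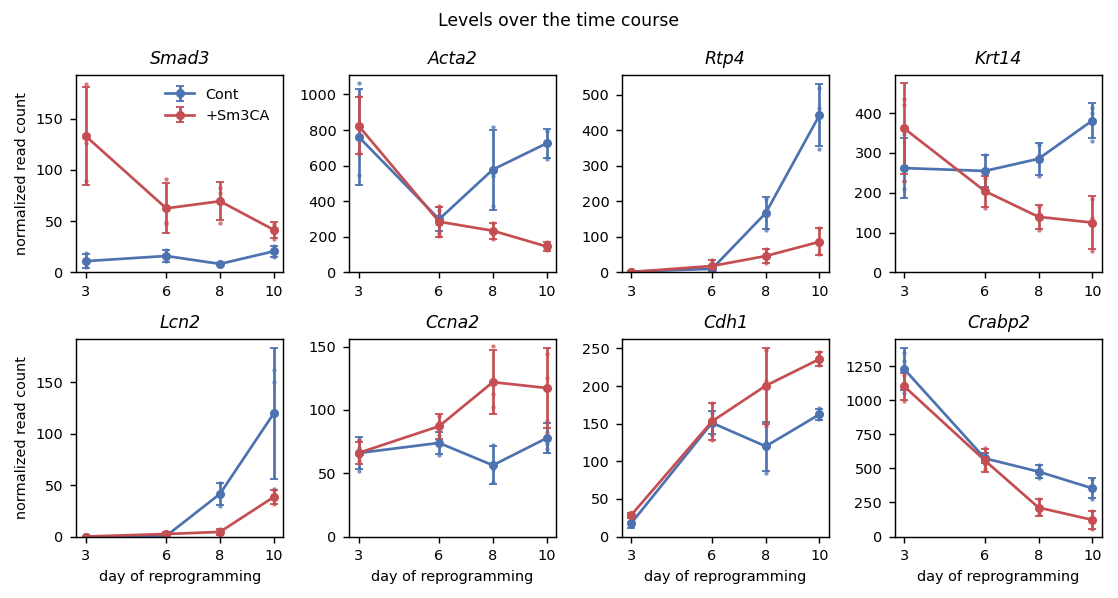
Normalized read counts (y axis) of 8 genes on days 3, 6, 8 and 10 (x axis) in Cont (blue) and +Sm3CA (red). Large points with bars are means ± SD of 3 libraries and small points are libraries; on day 6 Acta2 stood at 299 in Cont and 285 in +Sm3CA and Rtp4 at 9.78 and 17.9, neither of them called, and on days 8 and 10 Cont lay above for both genes.

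The genes called on day 8 were finally set against the direction of change between MEFs and ESCs, fitted on those 6 libraries alone. Of 8258 genes tested in both fits 22.7% were higher and 27.7% lower in ESCs. Of the 33 genes higher in +Sm3CA that were tested there, 17 were higher in ESCs, 3 were lower and 13 were not called. Of the 45 genes lower in +Sm3CA that were tested there, 0 were higher in ESCs, 30 were lower and 15 were not called. Tagln fell from 9675 normalized counts in MEFs to 21.4 in ESCs and Acta2 from 20302 to 12.3, whereas Prim1 stood at 65.2 and 342 and Pcna at 265 and 1137 (means of 3 libraries). Other called genes do not lie on this axis. Rtp4 was at 1.68 in MEFs and 1.21 in ESCs and Krt14 at 0.288 and 0, below their levels in both day 8 groups.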

How the data were processed

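The authors deposited raw read counts of 18909 genes in 84 wells. Per the submitters' processing notes, reads were processed with Bowtie 0.12.9 against mm10 and DESeq2 1.6.3 was used. Technical wells with the same title and replicate number were summed to 30 libraries. The 24 reprogramming libraries (8 groups of 3) were fitted in edgeR 4.0.16 (R 4.3.3; TMM scaling, filterByExpr, glmQLFit and glmQLFTest), the vectors were contrasted on day 8, and p-values were adjusted by Benjamini-Hochberg over 10237 genes with a threshold of 0.05. The standard error was the log2 fold change divided by the square root of F. Normalized counts used DESeq2 1.42.0 size factors. Alternatives used DESeq2, limma 3.58.1, other libraries and filters. The fit was also run on simulated counts with the same spread for every gene and no outlying library. That run does not test the calls made here.

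Named were Smad3, Smad2, the 12 called genes with the smallest p in each direction, called members of each list (or up to 2 of the most abundant tested members), the 4 genes in each direction with the smallest p for day 8 minus day 10, and Mbp, Ttr and Enpp2. Some of these genes are not reported here. The members and gene lists were chosen with earlier results of these data known. Of the 106 called genes 100 matched GENCODE annotation of GRCm38. Counts are reads, not molecules. The labels call the replicates biological but do not say whether they were separate infections, so that p-values measure the spread between these samples.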

Additional observations from a re-analysis of the deposited data

Results flagged for a closer look

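The effect of +Sm3CA on day 8 differed from that on day 10 for 8 named genes by a test of the difference itself in edgeR. For 4 genes the day 8 value was the higher one, namely Ccl7 (difference of log2 fold changes 1.74, adjusted p = 0.00135), Slc25a17 (1.44, adjusted p = 0.00209), Ctsl (1.36, adjusted p = 0.00517) and Itm2a (1.99, adjusted p = 0.0151). Ctsl stood at 483 and 514 normalized counts in Cont and +Sm3CA on day 8 and at 717 and 297 on day 10. For the brain genes Mbp (−8.68, adjusted p = 7.13e-06), Enpp2 (−12.92, adjusted p = 1.53e-05), Ttr (−11.42, adjusted p = 8.69e-05) and Kif5a (−8.34, adjusted p = 0.0016) the day 8 value was the lower one. These 4 were highest in Cont replicate 1 on day 8 and in +Sm3CA replicate 1 on day 10. Mbp stood there at 1273 and 520 normalized counts. Without these 2 libraries, Ccl7 (1.66, adjusted p = 0.0425) and Mbp (−4.22, adjusted p = 9.04e-05) kept the call. Slc25a17 (1.41), Ctsl (1.19), Itm2a (1.94) and Enpp2 (−7.21) kept the direction without the call, with adjusted p from 0.0622 to 0.146. Ttr had a value of 0.37 (adjusted p = 0.946), with the sign turned, and Kif5a was not tested.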

How the results depend on the processing

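Leaving out 1 library gave 21 to 523 called genes on day 8 (6 to 203 higher, 15 to 320 lower), of which 14 to 72 were list members. By list it gave 1 to 8 interferon, 1 to 7 contractile, 1 to 6 TGF-β target, 2 to 4 glial, 1 to 5 DNA replication and 0 to 3 keratin genes. The day 8 minus day 10 effect was called for 7 to 107 genes and the day 8 minus day 6 effect for 0 to 58. The log2 fold change of Smad3 ran from 2.98 to 3.30. Fitting only the days compared left 25 calls (6 higher, 19 lower, 16 in lists), with 2 interferon, 2 contractile, 2 TGF-β target, 2 glial and 0 DNA replication genes, 8 for day 8 minus day 10 and 1 for day 8 minus day 6. All 30 libraries left 32 calls (6 higher, 26 lower, 18 in lists), with 2 contractile, 1 TGF-β target, 2 glial, 1 DNA replication and 0 keratin genes, and 8 for day 8 minus day 10. Without the filter on low counts 264 were called (89 higher, 175 lower, 77 in lists), with 14 interferon, 7 glial and 5 keratin genes, 133 for day 8 minus day 10 and 49 for day 8 minus day 6. DESeq2's Wald test called 84 higher, with 2 interferon and 2 glial genes, 68 for day 8 minus day 10 and 25 for day 8 minus day 6. A single well per library gave 26 calls in lists, 2 glial and 1 keratin gene. Culture as a random block in voom gave 9 for day 8 minus day 10. Without Cont day 8 replicate 1 and +Sm3CA day 10 replicate 1, an alternative chosen after seeing the data, 4 were called for it. Deviations of same-numbered libraries of the 2 vectors from their group means correlated at −0.03, −0.12 and −0.12 on day 8. Libraries paired by design over days 6 and 8 gave −0.08 to 0.13 by the same measure. These values therefore cannot decide whether same-numbered libraries of the 2 vectors share more than a number. The replicate block gave 95 calls on day 8 and 29 for day 8 minus day 10. The cause of these changes was not tested. On day 8, 0 of the named genes that were called changed sign under an alternative, and 9 of those not called did (Lyz2 and Ctsl among them). DESeq2 turned the balance of higher and lower calls. Of the values of named genes, 386 kept their side of the threshold, 116 lost their call and 8 gained one when a library was left out, and 653, 81 and 5 did so under the other alternatives.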
